A study of Mus musculus with 6 samples.

Results

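Complement is represented here by 9 genes of the classical and alternative pathways: C1qa, C1qb, C1qc, C1ra, C4b, C2, C3, Cfb and Serping1. They were chosen by gene symbol, with earlier results of these data known, and all 9 were found among the 23420 genes of the count table. Retinal mRNA was sequenced from mice in 3 groups of 2 biological replicates each, to ask how light damage and minocycline, a tetracycline antibiotic, change gene expression. Per the labels, all mice were of strain CD1. Control mice received no treatment (replicates control 1 and control 2). The light group (light 1 and light 2) was exposed to 10000 lux for 1 h and examined after 4 days. The minocycline group had the same light exposure and time point, and 45 mg/kg minocycline daily by intraperitoneal injection for 4 days. Both of its columns have one header in common, and the libraries are therefore called minocycline A and minocycline B. There was no group given minocycline without light, so an effect of the drug apart from light damage cannot be told apart from its effect on the damage. The methods of the study differ from the labels in naming the albino strain BALB/cJ, a higher light intensity, additional early injections and another RNA kit. They give an age of 10 to 14 weeks, both sexes and 16 h of dark adaptation, and the pooling of animals within a library is not given in the sources used here.

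The classical pathway starts when C1q, built of A, B and C chains, binds antibody, dying cells or synapses and activates the attached proteases C1r and C1s. These cleave C4 and C2, whose fragments form an enzyme that cleaves C3, and the alternative pathway amplifies C3 cleavage through factor B. C1 inhibitor, encoded by Serping1, blocks C1r and C1s. In the retina, microglia are known as the main source of C1q, while other complement genes are also expressed by glia and by the pigment epithelium.

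The libraries held 15205930 to 22856922 counts, and 3 counts corresponded to 0.131 to 0.213 CPM (counts per 1000000, with library sizes adjusted by TMM). That floor allows for counting error alone, as PCR copies are no independent molecules. Rod markers were the most abundant of the marker lists in every library, as the label retina implies. Control 1 stood apart by sex-linked genes, with 77778 counts of Xist against 25 to 188 in the other libraries, and 11 counts of Y-linked genes against 6532 to 12858. The summed lists of corneal epithelium and stroma genes were higher in the minocycline libraries. The corneal list summed to 199 and 285 CPM there, against 4.65 to 19.1 CPM in the other 4 libraries. The stroma list summed to 38.1 and 130 CPM, against 15.1 to 20.7 CPM. Not every stroma gene was higher. Col1a2 overlapped between minocycline (9.36 and 17.6 CPM) and light (8.64 and 10.6 CPM). Dpt had 1 and 2 counts with minocycline and 3 and 4 after light. Groups were compared in pairs with edgeR's quasi-likelihood test. A call required a log2 fold change of 2 or more in size, the fold cutoff of the study's methods, together with a Benjamini-Hochberg adjusted p under 0.05.

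Light exposure was followed by higher levels of most of the 9 complement genes. In the light group, C3, Serping1, Cfb and C1ra were called higher and none of the 9 lower, a total of 4 of 9 genes against 2.89% of the 14349 genes tested being called higher and 0.0279% lower. C4b also passed the adjusted p, so that 5 of 9 genes passed it irrespective of the fold, against 7.52% of all genes. The 3 C1q genes had fitted changes as large as that of C3 but missed the threshold, and C2 did not pass. In 8 of 9 genes both light replicates lay above both controls, against 30.6% of all genes tested. No gene of the 9 was called without control 1, the library with high Xist, and only Serping1 without control 2, while 8 were called without light 1 and 6 without light 2. The median log2 fold change was 3.15 over the 9 genes and 0.00253 over all genes. With 2 libraries a group, a rise in bulk retina can come from more cells of a type or from more RNA per cell, and these cannot be told apart. The 7 rod markers, all measured, were lower in both light libraries than in the others, with a summed level of 91224 and 72191 CPM in the controls, 53651 and 37889 CPM after light, and 77702 and 84304 CPM with minocycline. Their part in the complement values was not tested.

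**Figure D1:**
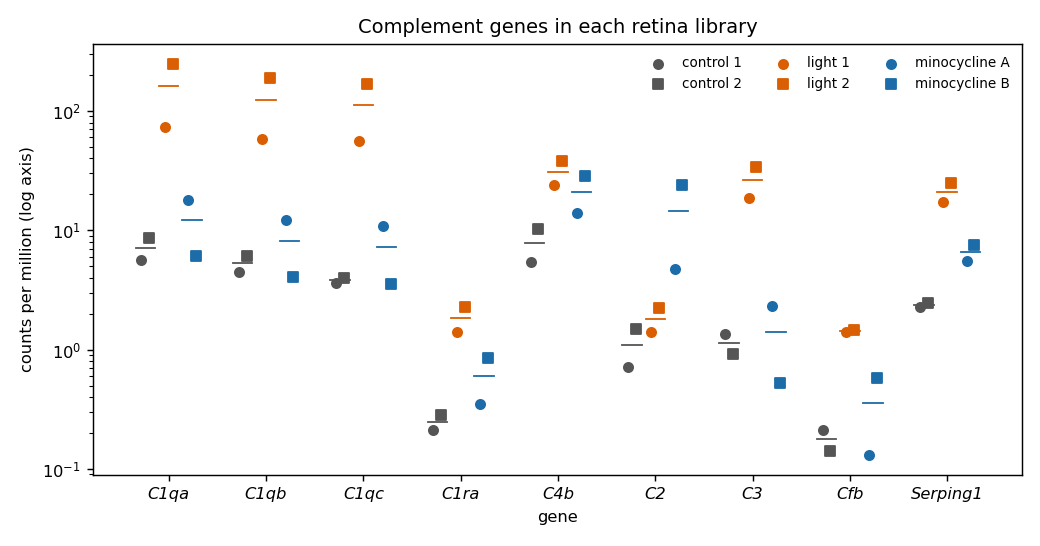
Levels in CPM (log axis) of the 9 complement genes, with 1 point per library and a bar at each group mean. Light replicates sit above the controls for every gene but C2, for which the minocycline libraries are the highest.

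Per length of transcript, the C1q chains were the most abundant of the 9 genes in each group mean. Their genes, C1qb, C1qc and C1qa, lie in this order within 18.7 kb of chromosome 4 on the minus strand (GRCm38): C1qb at 136880129 to 136886187, C1qc at 136889804 to 136893065 and C1qa at 136895917 to 136898803. As these genes move together, the promoters of C1qb (chr4:136886151-136886450) and C1qc (chr4:136892865-136893164) are shown, from RefSeq on GRCm38.p6, 5′ to 3′ on the minus strand, 250 bases before the transcription start and 50 from it. Capitals mark matches to any of 4 motifs searched on both strands: the PU.1 core GAGGAAG, the STAT motif TTCNNNGAA, the IRF core GAAANNGAA and the NF-kB consensus.
C1qb: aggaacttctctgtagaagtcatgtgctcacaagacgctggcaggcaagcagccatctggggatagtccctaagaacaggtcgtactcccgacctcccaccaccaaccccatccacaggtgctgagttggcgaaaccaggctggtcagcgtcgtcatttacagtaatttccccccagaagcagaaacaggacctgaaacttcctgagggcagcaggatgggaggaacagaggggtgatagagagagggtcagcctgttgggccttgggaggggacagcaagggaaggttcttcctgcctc
C1qc: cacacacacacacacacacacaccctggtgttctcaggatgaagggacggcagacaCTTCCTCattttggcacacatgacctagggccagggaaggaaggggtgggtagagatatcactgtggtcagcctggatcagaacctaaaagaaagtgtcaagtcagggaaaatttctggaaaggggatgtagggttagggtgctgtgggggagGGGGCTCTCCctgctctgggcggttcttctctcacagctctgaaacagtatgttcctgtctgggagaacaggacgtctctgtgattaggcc
The C1qc promoter held the PU.1 core on the opposite strand at -194 to -188, counting the first transcribed base as 0, and the NF-kB consensus at -41 to -32. These 2 matches do not overlap, and none of the 4 motifs matched in the C1qb window. The RefSeq start of C1qc lies inside the gene span given above, which is from GENCODE. The NF-kB match therefore falls within that span. Among 32851 promoters of this length, 13.6% hold the PU.1 core, 8.3% the STAT motif, 8.56% the IRF core and 8.46% the NF-kB consensus, so a match is a description of the letters only. Promoters of 4 of the 9 genes were in the table, the others being C1ra and C3.

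C1qa measured 5.69 and 8.59 CPM in the controls, 73.2 and 249 CPM in light 1 and light 2, and 18.1 and 6.15 CPM with minocycline (A and B). C1qb measured 4.48 and 6.13 CPM in the controls, 58.5 and 188 CPM after light, and 12.1 and 4.03 CPM with minocycline. C1qc measured 3.63 and 4.01 CPM in the controls, 55.5 and 169 CPM after light, and 11.0 and 3.55 CPM with minocycline. For each chain both light replicates were far above the controls, light 2 was the highest library, and minocycline A lay above the controls. Minocycline B was within the control range for C1qa and just below it for C1qb and C1qc. The group means of C1qa were 7.14 ± 2.05, 161 ± 125 and 12.1 ± 8.46 CPM in control, light and minocycline (SD, n = 2 each).

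After light, the log2 fold change was 4.50 for C1qa (SE 0.92), with an adjusted p of 0.0981 in edgeR. It was 4.54 for C1qb (SE 0.86, adjusted p = 0.0831) and 4.88 for C1qc (SE 0.83, adjusted p = 0.0685), also in edgeR. None of the 3 was called, whereas DESeq2 called all 3, along with C3, Serping1 and C1ra, that is 6 of 9 genes against 3.08% of all genes. Light 2 exceeded light 1 by 3.41-fold for C1qa, 3.20-fold for C1qb and 3.05-fold for C1qc. The 12 genes of a microglia list, among them Cx3cr1, Tmem119 and P2ry12, summed to 54.6 and 51.9 CPM in the controls, 247 and 724 CPM after light, and 87.2 and 48.8 CPM with minocycline, and light 2 exceeded light 1 by 2.93-fold. All 12 were measured, 6 of the 12 tested were called higher after light by edgeR, against 2.89% of all genes, and none was at 0. A list of 8 monocyte and neutrophil genes summed to 0.352 to 0.853 CPM in control, 1.87 and 2.28 CPM after light, and 1.35 and 1.96 CPM with minocycline. Camp, a neutrophil granule gene, was at 0 in every library, and 4 of the 8 stayed under 10 counts in every library. Ccr2, a receptor of monocytes, had 0 and 0 counts in the controls, 10 and 12 after light, and 1 and 0 with minocycline, and S100a8 had 1 and 0, 7 and 24, and 4 and 2 counts. Ly6c2 had 6 and 2, 4 and 3, and 6 and 3 counts, and Plac8 was highest with minocycline, with 3 and 0, 3 and 3, and 9 and 27 counts. S100a9 had 2 and 0, 6 and 4, and 10 and 2 counts, so that these genes did not share 1 pattern.

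C1q was also set against the microglia list within each library. Per 100 counts of the microglia list there were 25.3 and 36.1 C1q chain counts in the controls, 75.8 and 83.7 after light, and 47.3 and 28.1 with minocycline. The groups of control and light did not overlap in this ratio, and the minocycline libraries lay on either side of control 2. These ratios are descriptions without a test, and not every gene of the list is restricted to microglia. The chains themselves kept similar proportions, with 0.655 to 0.80 C1qb counts and 0.467 to 0.759 C1qc counts per C1qa count across the 6 libraries. No 50-base stretch of the C1q transcripts, the length of a read, is found in transcripts of another gene.

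**Figure D2:**
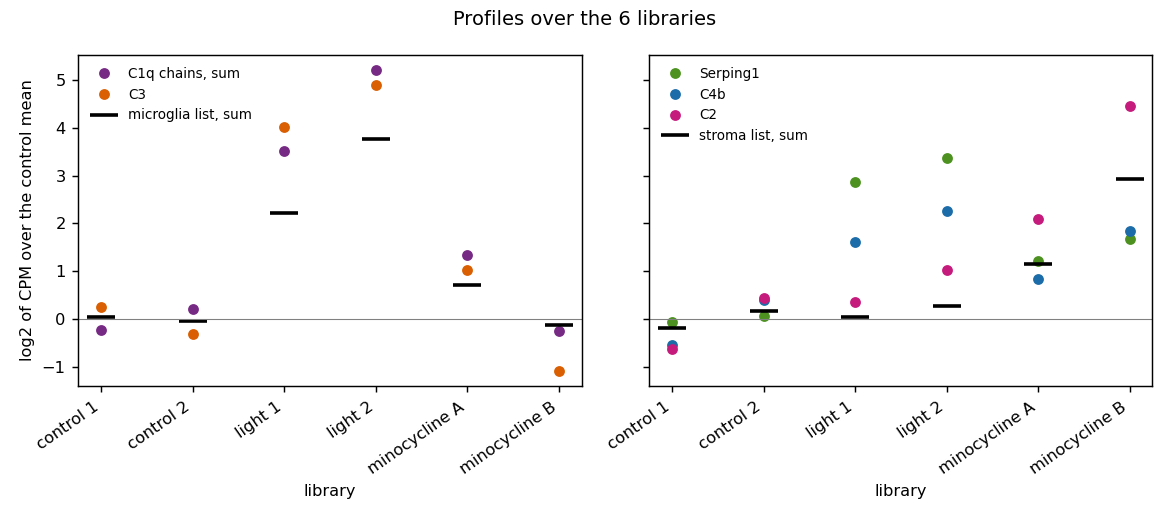
Log2 of the CPM over the control mean in each library, for the summed C1q chains and C3 beside the summed microglia list (left) and for Serping1, C4b and C2 beside the summed stroma list (right). C1q and C3 exceed the microglia list in both light replicates, and C2 is highest in minocycline B, as is the stroma list.

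C1ra, which encodes the protease C1r, lies on the plus strand of chromosome 6 at 124512405 to 124523443. Its promoter is shown (chr6:124512371-124512670, plus strand, capitals as above) because the gene was called.
C1ra: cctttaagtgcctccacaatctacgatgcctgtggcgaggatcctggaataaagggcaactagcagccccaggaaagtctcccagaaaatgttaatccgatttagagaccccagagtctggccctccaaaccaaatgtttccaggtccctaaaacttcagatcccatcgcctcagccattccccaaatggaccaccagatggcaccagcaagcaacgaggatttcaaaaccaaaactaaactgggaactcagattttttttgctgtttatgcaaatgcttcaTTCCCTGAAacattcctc
The STAT motif, which reads alike on both strands, was found at 32 to 40, after the RefSeq transcription start. That start lies inside the gene span given above, which is from GENCODE. Most of this window is therefore not upstream of the GENCODE start. C1ra had 3 and 4 counts in the controls, 24 and 48 after light, and 8 and 16 with minocycline. These correspond to 0.213 and 0.282 CPM, 1.40 and 2.28 CPM, and 0.348 and 0.848 CPM. The 3 groups did not overlap, with light highest and control lowest. The log2 fold change after light was 2.87 (SE 0.56, edgeR adjusted p = 0.0157). From the counts alone the ratio of light to control was 7.61, with an exact 95% interval of 3.51 to 19.6 that covers counting error only. Of the C1ra transcript, 50.8% of the 50-base stretches also occur in other genes, mainly in the near copy C1rb, so reads of the pair may be split. C1rb itself had 0 to 3 counts in every library.

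Serping1, the inhibitor of C1r and C1s, gave the smallest p of the 9 genes in edgeR after light, whereas in DESeq2 that gene was C3. It lies on chromosome 2 at 84765387 to 84775444 (minus strand). Its level was 2.27 and 2.46 CPM in the controls, 17.4 and 24.7 CPM after light, and 5.53 and 7.58 CPM with minocycline. All 3 groups were apart, the minocycline libraries lying between control and light. The means were 2.37 ± 0.134, 21.0 ± 5.15 and 6.55 ± 1.45 CPM (SD, n = 2 each). Light raised Serping1 by a log2 fold change of 3.15 (SE 0.28, edgeR adjusted p = 0.000739), and light 2 exceeded light 1 by 1.42-fold.

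C4b and C2 supply the enzyme of the classical pathway that cleaves C3. C4b lies on chromosome 17 at 34728380 to 34743882 and C2 at 34862604 to 34898265, both on the minus strand. C4b measured 5.40 and 10.4 CPM in the controls, 24.1 and 38.0 CPM after light, and 14.02 and 28.2 CPM with minocycline. Light and minocycline overlapped, and both lay above control. C4b changed by 1.98 after light on the log2 scale (SE 0.35, edgeR adjusted p = 0.0197), just under the fold cutoff. Its near copy C4a, also on the minus strand, lies upstream, with its end 65.2 kb from the start of C4b. C4a shares 35.2% of the 50-base stretches of C4b. C4a had 72 and 74 counts in the controls, 74 and 133 after light, and 72 and 99 with minocycline. Its log2 fold change after light was 0.05 (SE 0.32, edgeR adjusted p = 0.933). There were 1.06 and 1.99 C4b counts per C4a count in the controls, 5.57 and 6.02 after light, and 4.47 and 5.38 with minocycline, so this ratio separated the controls from the other 4 libraries. How shared reads were assigned is not given in the sources used here.

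C2 was the only gene of the 9 that was highest with minocycline. It had 10 and 21 counts in the controls, 24 and 47 after light, and 108 and 455 with minocycline (A and B). In CPM this is 0.711 and 1.48 CPM, 1.40 and 2.23 CPM, and 4.70 and 24.1 CPM. Control and light overlapped, and both minocycline libraries were above them, with minocycline B 5.13-fold above minocycline A. After light the log2 fold change of C2 was 0.74 (SE 0.49, edgeR adjusted p = 0.349). A list of 7 stroma genes, all 7 measured, summed to 15.1 and 19.2 CPM in the controls, 17.7 and 20.7 CPM after light, and 38.1 and 130 CPM with minocycline, where minocycline B exceeded minocycline A by 3.41-fold. None of the 7 was at 0 in every library, and Dpt stayed under 10 counts in every library. Counts of Dcn, a matrix gene of fibroblasts on this list, were 21 and 52 in the controls, 15 and 33 after light, and 322 and 1342 with minocycline. Per Dcn count there were 0.335 and 0.339 C2 counts in minocycline A and B, 0.476 and 0.404 in the controls, and 1.60 and 1.42 after light. The part of stromal cells in the C2 counts was not tested. In the annotation (GENCODE, GRCm38), C2 overlaps Zbtb12 on the other strand and the read-through transcript Gm20547 on its own strand, which also spans Cfb. Gm20547 is no row of the count table, and Zbtb12 had 12.2 and 10.8 CPM in the controls, 10.5 and 8.21 CPM after light, and 11.5 and 12.7 CPM with minocycline. Whether counting used the strand is not given in the sources used here.

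**Figure D3:**
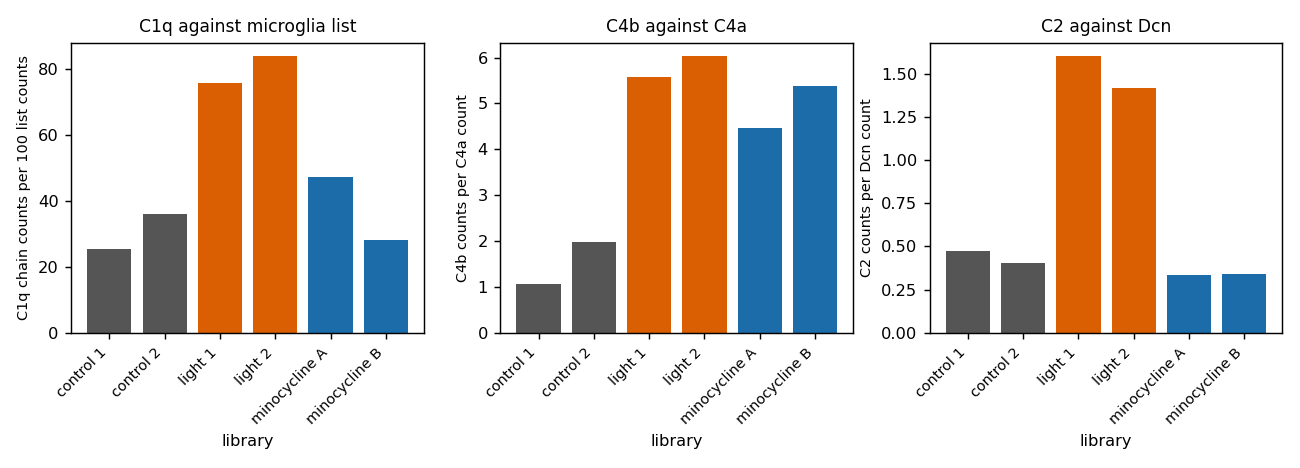
Ratios of counts within each library (grey control, orange light, blue light with minocycline), as bars from 0: C1q chain counts per 100 microglia list counts, C4b per C4a count and C2 per Dcn count. C1q per microglia list count and C2 per Dcn count are highest after light, while C4b per C4a stays at 4.47 and 5.38 with minocycline.

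C3, on which all pathways converge, is on the minus strand of chromosome 17 at 57203970 to 57228136. Its promoter (chr17:57228087-57228386, minus strand, RefSeq on GRCm38.p6) held none of the 4 motifs. It is shown because C3 had the largest called change of the 9 genes.
C3: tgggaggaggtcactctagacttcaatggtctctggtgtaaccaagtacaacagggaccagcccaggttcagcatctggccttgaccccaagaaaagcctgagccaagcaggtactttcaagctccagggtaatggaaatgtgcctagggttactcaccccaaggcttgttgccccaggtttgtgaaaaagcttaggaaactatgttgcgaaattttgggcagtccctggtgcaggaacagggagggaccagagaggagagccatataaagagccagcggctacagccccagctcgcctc
C3 measured 1.35 and 0.916 CPM in the controls, 18.5 and 34.0 CPM after light, and 2.31 and 0.530 CPM with minocycline (A and B). Light stood apart from both other groups, and the minocycline libraries lay above and below the controls. The log2 fold change after light was 4.53 (SE 0.38, edgeR adjusted p = 0.00106). This size is close to those of the C1q chains, but light 2 exceeded light 1 by 1.84-fold.

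Cfb, which encodes factor B of the alternative pathway, lies on the minus strand of chromosome 17 at 34856374 to 34862518. Its start is 86 bases from the end of C2, which lies upstream. Cfb had 3 and 2 counts in the controls, 24 and 31 after light, and 3 and 11 with minocycline. Light lay above both other groups, which overlapped. The fitted log2 fold change after light was 2.97 (SE 0.58, edgeR adjusted p = 0.0156), a call that DESeq2 did not make (DESeq2 adjusted p = 0.0520). Both controls were at or under 3 counts, so the fitted value rests on few counts. The ratio of light to control from the counts was 8.14, with an exact 95% interval of 3.29 to 26.1. Factor B and C2 are close relatives as proteins, but the ratio of their counts was not constant, with 3.33 and 10.5 C2 counts per Cfb count in the controls, 1.00 and 1.52 after light, and 36.0 and 41.4 with minocycline.

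**Figure D4:**
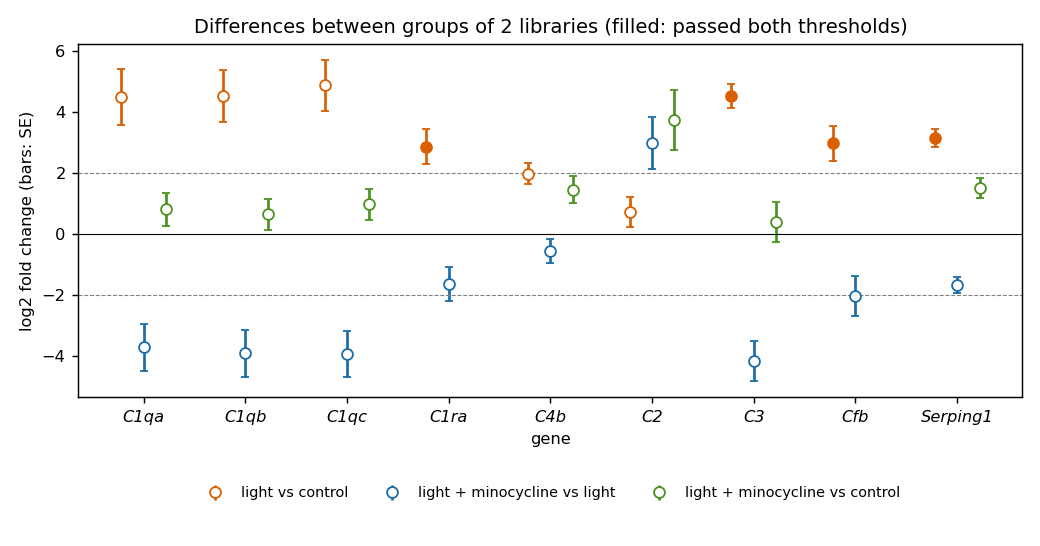
Log2 fold changes of the 9 genes in the 3 comparisons from edgeR, with bars of 1 SE, dashed lines at the fold cutoff of 2 and filled points for calls. After light the 9 points lie at 0.74 to 4.88, with minocycline against light 8 of 9 are negative, and C2 is the exception.

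Compared per kilobase of the longest coding transcript, the genes kept a wide range of levels. In light, C1qa had a mean of 155 CPM per kb, C1qb 113 and C1qc 93.4, followed by Serping1 with 11.9. C4b had a mean of 5.77 CPM per kb and C3 5.11, and the lowest were C2 with 0.688, C1ra with 0.617 and Cfb with 0.522. The ranges of the 3 C1q chains overlapped, as did those of C4b and C3 and those of C2, C1ra and Cfb, while Serping1 stood apart from its neighbours. In control the order was C1qa with 6.87 CPM per kb, C1qb with 4.87, C1qc with 3.17, C4b with 1.46, Serping1 with 1.34, C2 with 0.415, C3 with 0.221, C1ra with 0.083 and Cfb with 0.0644. C4b and Serping1 overlapped there, as did C1qa and C1qb, and the last 2 genes rested on 2 to 4 counts. With minocycline C2 took the fourth place with 5.45 CPM per kb, and its libraries overlapped with those of C4b, Serping1 and the C1q chains.

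With minocycline, 8 of the 9 genes had lower fitted levels than after light alone. None of them was called by edgeR in either direction, in a comparison where 0.0339% of the 14750 tested genes were called lower and 0.0136% higher. At an unadjusted p under 0.05, 7 of 9 genes were lower, against 12.1% of all genes, and C2 was higher, against 9.04%. These are also the genes whose libraries did not overlap, 7 lower against 28.7% of all genes and 1 higher against 26.1%. DESeq2 called C1qa, C1qb, C1qc and C3 lower, 4 of 9 genes against 1.96%, and C2 higher, against 0.709%. The median log2 fold change was -2.02 over the 9 genes and 0.00617 over all genes.

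The largest differences from light alone were those of C3 and the C1q chains. On the log2 scale C3 differed by -4.16 (SE 0.65), C1qc by -3.92 (SE 0.75), C1qb by -3.90 (SE 0.77) and C1qa by -3.71 (SE 0.78). Their adjusted p in edgeR ranged from 0.0698 for C3 to 0.0936 for C1qa. Cfb differed by -2.02 (SE 0.65, edgeR adjusted p = 0.142), and from the counts its ratio to light was 0.232, with an exact 95% interval of 0.119 to 0.423 for counting error. For the regulator Serping1 the difference was -1.67 (SE 0.27, edgeR adjusted p = 0.0698), and for the protease gene C1ra it was -1.63 (SE 0.55, edgeR adjusted p = 0.157). In DESeq2, Serping1 passed the adjusted p (2.145e-05) and missed only the fold cutoff, while C1ra did not pass (DESeq2 adjusted p = 0.2996). C4b was nearest to its level after light, with -0.54 (SE 0.39, edgeR adjusted p = 0.494), and its libraries overlapped with light. C2 was higher by 2.99 (SE 0.86, edgeR adjusted p = 0.145). Without minocycline A, edgeR called C2 higher by 3.75 (adjusted p = 0.00411) and C3 lower by a log2 fold change of -5.58 (adjusted p = 0.0386). Without minocycline B, neither was called, with 1.37 for C2 (edgeR adjusted p = 0.233) and -3.50 for C3 (edgeR adjusted p = 0.147). The summed microglia list was also lower in the minocycline libraries (87.2 and 48.8 CPM, against 247 and 724 CPM). Of its 12 genes edgeR called 0 in either direction, 10 were lower and 0 higher at an unadjusted p under 0.05, against 12.1% and 9.04% of all genes, and DESeq2 called 8 lower and 0 higher, against 1.96% and 0.709%. The libraries of Tmem119 and Siglech overlapped, with 3.27 and 9.78 CPM after light and 3.44 and 1.27 CPM with minocycline for Tmem119, and 1.23 and 1.71 against 2.22 and 1.01 CPM for Siglech. The reactive glia genes were lower in sum as well (330 and 244 CPM, against 722 and 1022 CPM). All 7 reactive glia genes were measured, 3 of the 7 were called higher after light by edgeR, against 2.89% of all genes, and Serpina3n and Lcn2, 2 of the 7, were called lower with minocycline, against 0.0339%. The part of these cells in the complement values was not tested.

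As a description, the share of the mean rise after light that was left with minocycline was 1.14% for C3, 3.23% for C1qa, 2.36% for C1qb and 3.17% for C1qc. It was 14.3% for Cfb, 22% for C1ra, 22.4% for Serping1 and 57.2% for C4b. These 8 genes thus ranged from a return to about control level to more than 50% of the rise, while C2, which was higher with minocycline than after light, has no such share. The libraries behind these means were unequal. Minocycline A exceeded minocycline B by 4.35-fold for C3 and by 2.95- to 3.09-fold for the C1q chains, whereas minocycline B was the higher by 4.46-fold for Cfb, 2.44-fold for C1ra, 2.02-fold for C4b and 1.37-fold for Serping1. The microglia list was 1.79-fold higher in minocycline A.

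Against untreated controls, none of the 7 testable complement genes was called in the minocycline group, in edgeR or in DESeq2, where 0.134% of 14181 genes were called higher by edgeR, 0% lower, and 0.645% higher by DESeq2. C1ra and Cfb did not pass the filter on low counts of edgeR in this comparison. DESeq2 gave an adjusted p for all 9 genes and called neither of them. Serping1, C4b and C2 had an unadjusted p under 0.05 and were higher, 3 of 7 genes against 5.39% of all genes, and in the same 3 the libraries did not overlap, against 15.9%. Serping1 was higher by 1.51 on the log2 scale (SE 0.33), with an adjusted p of 0.175 in edgeR. C4b was higher by 1.46 (SE 0.44), with an adjusted p of 0.478 in edgeR and of 0.0252 in DESeq2, where it missed only the fold cutoff. The adjusted p in DESeq2 was 0.0841 for Serping1 and 0.106 for C2. C2 was higher by 3.74 (SE 0.99), with an adjusted p of 0.490 in edgeR, and it was called at 4.49 without minocycline A and at 2.10 without minocycline B. The C1q chains differed by 0.66 to 0.98 and C3 by 0.39, with adjusted p of 0.742 to 0.858 in edgeR, and their libraries overlapped with control. Without minocycline A these 4 differences were negative. For the low genes, the ratio to control from the counts was 2.32 for C1ra (exact 95% interval 0.968 to 6.36) and 1.89 for Cfb (0.644 to 6.71). The 3 comparisons share libraries and are not independent of one another.

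Other genes of the complement system were taken from a list of 50, of which 46 were in the count table and 22 could be tested between light and control. Of these 22, edgeR called C1s, C1rl, Cfi and Itgb2 higher and none lower, 4 of 22 genes against 2.89% of all genes. DESeq2 also called 4 higher, against 3.08% of all genes, but these were Itgb2, C3ar1, Itgam and Itgax, and its adjusted p was 0.054 for C1s, 0.0872 for Cfi and 0.261 for C1rl. With minocycline against light, edgeR called none of 23 tested genes (background 0.0339% lower and 0.0136% higher), while 7 were lower and 1 higher at an unadjusted p under 0.05, against 12.1% and 9.04% of all genes. DESeq2 called the same 4 receptor genes lower there, against 1.96% of all genes. Against control, neither tool called any (18 tested in edgeR, background 0.134% higher), and 2 were higher and 1 lower at an unadjusted p under 0.05 in edgeR, against 5.39% and 1.62% of all genes. C1s, the partner protease of C1r, had 6 and 5 counts in the controls, 32 and 44 after light, and 37 and 37 with minocycline. In CPM these are 0.427 and 0.352, 1.87 and 2.09, and 1.61 and 1.96, so that minocycline A lay below both light replicates, minocycline B between them, and both above control. The log2 fold change of C1s after light was 2.33 (SE 0.49, edgeR adjusted p = 0.0188), and with minocycline against control it was 2.22 (SE 0.47, edgeR adjusted p = 0.155). C1rl, a C1r-like gene, had 3 and 2 counts in the controls, 11 and 24 after light, and 9 and 21 with minocycline, with a log2 fold change of 2.31 after light (SE 0.66, edgeR adjusted p = 0.0474).

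Among the soluble regulators, 4 of 7 were tested and 1 was called. Cfi, a protease that inactivates C3b and C4b, had 8 and 6 counts in the controls, 34 and 44 after light, and 28 and 6 with minocycline (log2 fold change after light 2.03, SE 0.47, edgeR adjusted p = 0.0239). Clusterin (Clu), a chaperone that also binds terminal complexes, differed by 0.89 after light (SE 0.17, edgeR adjusted p = 0.0141). Vtn, which encodes vitronectin, differed by -0.64 after light (SE 0.20, edgeR adjusted p = 0.0652; DESeq2 adjusted p = 0.00425) and by 0.67 with minocycline against light (SE 0.20, edgeR adjusted p = 0.126; DESeq2 adjusted p = 0.00446). Of the membrane regulators 6 of 8 measured genes were tested and none was called, with Csmd1 at -0.72 (SE 0.21, edgeR adjusted p = 0.0494) and Cd46 at 0.54 (SE 0.41, edgeR adjusted p = 0.416).

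Receptors for complement fragments had the widest range. C3ar1, the receptor of C3a, had 5 and 2 counts in the controls, 219 and 1160 after light, and 20 and 7 with minocycline. All light values were far above the others, with a log2 fold change of 7.06 (SE 1.42, edgeR adjusted p = 0.0896). The C5a receptor gene C5ar1 had 1 and 0 counts in the controls, 7 and 27 after light, and 7 and 1 with minocycline, and C5ar2 had at most 1 count. Itgb2, the beta chain shared by the C3 fragment receptors CR3 and CR4, was called higher with 4.86 (SE 0.92, edgeR adjusted p = 0.0469). Their alpha chains were not called by edgeR, with 3.95 for Itgam (SE 0.92, edgeR adjusted p = 0.0974) and 3.54 for Itgax (SE 1.03, edgeR adjusted p = 0.0782). DESeq2 called both, with an adjusted p of 0.00072 for Itgam and 0.00583 for Itgax, and it called C3ar1 with an adjusted p of 8.84e-07. With minocycline against light, the log2 fold changes in DESeq2 were -5.75 for C3ar1, -4.02 for Itgb2, -3.95 for Itgax and -3.54 for Itgam, with adjusted p of 2.78e-05 to 0.00665.

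Components of the other routes had few counts or were not called. Of the initiators of the lectin pathway, Mbl1, Fcnb and Colec10 had 0 counts in every library, which allows up to 0.131 to 0.213 CPM a library, and Masp2 differed by -0.21 after light (SE 0.24, edgeR adjusted p = 0.591). Masp1, another protease of that pathway, was too low for the edgeR test, with 0 and 1 counts in the controls, 5 and 26 after light, and 3 and 2 with minocycline, and its adjusted p after light was 0.136 in DESeq2. The ficolin gene Fcna had 0 and 0 counts in the controls, 5 and 4 after light, and 2 and 0 with minocycline, so Masp1 and Fcna were both highest after light. Cfd, which activates factor B, had 0 to 2 counts, and Cfp (properdin) differed by -0.21 (SE 0.21, edgeR adjusted p = 0.556). Of 7 genes of the terminal pathway only C8g was tested, with 10 to 24 counts and a log2 fold change of -0.15 (SE 0.49, edgeR adjusted p = 0.870). Hc, which encodes C5, had at most 1 count, and C9 had 0 in every library.

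**Figure D5:**
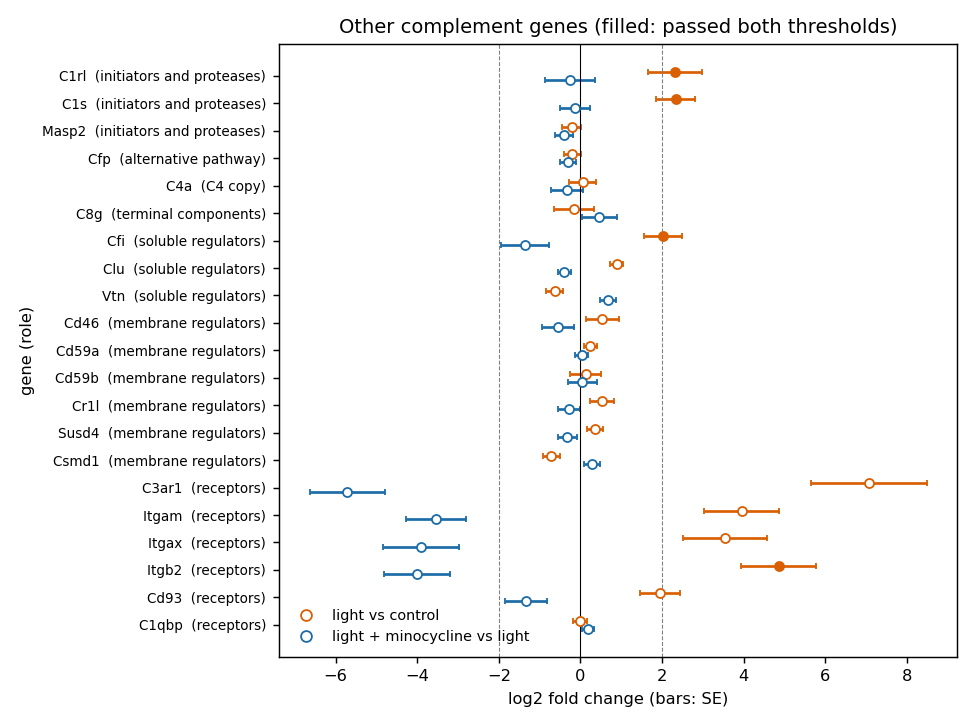
Log2 fold changes (bars of 1 SE) of 21 of the 22 other complement genes tested between light and control, with the values of minocycline against light beside them, labelled by role, and filled points for calls. Receptors span the widest range, with C3ar1 at 7.06 after light, while C4a, Cfp and C8g lie near 0.

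The genes whose pattern was most like that of each complement gene were sought among 11157 genes with a mean of at least 100 counts, by the Pearson correlation of log2 CPM over the 6 libraries. The libraries are shared by all genes and fall into groups, so these coefficients are descriptions. C1qa was closest to Pld4, Cd53 and Csf1r (r = 0.998 each), C1qb to Ptpre, Trem2 and Csf1r (0.999, 0.998 and 0.998), and C1qc to Tlr7, Fcgr3 and Chl1 (0.999, 0.999 and 0.997). C3 was closest to Megf10, Micall1 and Ampd3 (0.997, 0.997 and 0.995). Serping1 (0.996, 0.995 and 0.991) had Eci2, Tgm2 and Mvp, and C1ra (0.987, 0.982 and 0.981) had Mvp, Eci2 and A2m, so both shared Eci2 and Mvp. C4b was closest to Met, Gpnmb and Fam13a (0.987, 0.986 and 0.981), and Cfb to Cdc40, Eif2b2 and Dab2 (0.988, 0.984 and 0.957). C2 was closest to Tgfbr3, Gsta3 and Hspb8 (0.995, 0.989 and 0.987). Like C2, these 3 genes were highest in minocycline B.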

How the data were processed

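The authors prepared stranded mRNA libraries from retinal RNA, aligned single 50-base reads to mm10 (GRCm38) with STAR within RNA Express, and deposited counts per gene. Their data statement names normalized DESeq2 counts, but the deposited counts are whole numbers with unequal totals and were used as raw counts. The annotation, the versions of STAR and DESeq2 and the use of the strand in counting are not given in the sources used here. Of the 23420 genes, 4791 had 0 counts in every library, and 0 value columns were left out.

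Each pair of groups was tested across all genes by the robust quasi-likelihood F test of edgeR (version 4.0.16, R version 4.3.3) after filterByExpr and TMM, with Benjamini-Hochberg adjustment, a procedure first tested on simulated counts. DESeq2 1.42.0 without shrinkage was an alternative, with other scalings, filters and sample sets. Standard errors were derived from the F statistic. Log2 CPM used a prior count of 2, and a gene with at most 3 counts was taken as at the limit of detection. Exact intervals for ratios of low counts used the conditional binomial distribution (scipy). Lengths, overlaps and shared 50-base stretches came from GENCODE on GRCm38, promoters from RefSeq on GRCm38.p6.

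The complement genes and all lists were chosen with earlier results of these data known. Of the 50 other complement genes, those named were the genes called in any comparison, the near copies C4a and C1rb, the receptors of C3a and C5a, up to 2 further genes per role with the largest change, and, chosen after their values were seen, genes with few or no counts. The marker genes Camp, Ccr2, S100a8, S100a9, Ly6c2, Plac8, Tmem119, Siglech, Col1a2 and Dpt, and Vtn, were also chosen after their values were seen. A further gene that this rule names is not reported here. For each complement gene the 3 genes of most similar pattern were named. Further lists covered Müller glia (group means of the summed level 2278 to 3133 CPM), endothelium (26.0 to 32.7 CPM), pigment epithelium (144 to 244 CPM), hepatocytes and plasma (37.4 to 62.9 CPM) and lymphocytes (0.106 to 0.434 CPM). The labels call the libraries replicates and the methods biological replicates, and p-values measure only the spread between these libraries.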

Additional observations from a re-analysis of the deposited data

How the results depend on the processing

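With 2 libraries a group, the number of calls depended on single libraries more than on most settings. Of the 9 genes, 4 were called higher after light. The number was 8 with total library size in place of TMM, a scaling that moved the median of all genes by 0.235 on the log2 scale in this comparison and by -0.173 between minocycline and light. It was 0 to 8 when each library was left out in turn: 0 without control 1, the library with high Xist, 1 without control 2 (Serping1), 8 without light 1 and 6 without light 2. A lone library is assumed to vary like the other group in these fits, and the cause of these differences was not tested. Under every alternative run the log2 fold changes stayed positive, at 2.88 to 3.39 for Serping1, 4.02 to 4.90 for C3 and 3.36 to 5.13 for C1qa. Their adjusted p, in edgeR or DESeq2, ran from 2.83e-16 to 0.0602 for Serping1, from 6.38e-24 to 0.0869 for C3 and from 4.01e-17 to 0.359 for C1qa. Control and light share replicate numbers, and a replicate block gave 8 calls. The deviations of same-numbered libraries had a correlation of -0.00794 across 14349 genes. With 2 libraries a group, and control 1 apart in sex-linked genes, this value cannot decide whether the numbers pair the libraries. No paired analysis was possible because both minocycline columns carry the same replicate number, for the comparisons with that group.

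Between minocycline and light, 1 gene (C3) was called lower with all 6 libraries in 1 fit, DESeq2 called 4 lower and 1 higher (C2), and leaving out single libraries gave 0 to 1 in either direction, the 1 being C3 lower and C2 higher without minocycline A. Between minocycline and control, C2 was the 1 gene called higher without minocycline A or without minocycline B (0 to 1 over all libraries left out). Without minocycline A, the log2 fold changes against control turned to -0.18 for C1qa, -0.36 for C1qb, -0.0688 for C1qc and -1.05 for C3, and the highest values with 1 library left out were 1.35, 1.20, 1.52 and 1.03, all without minocycline B. Of the single-gene values under alternatives, 76 of the light comparison kept their call or lack of one, 9 lost it and 21 gained it, without a change of direction. In the minocycline comparisons the same held for 89 values, with 8 gained, against light, and for 71, with 2 gained, against control, where the 4 other values are the changes of direction given above. Genes with under 10 counts in controls, C1ra and Cfb, are limited by depth.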
